A study of Homo sapiens with 6 samples.

Results

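The genes described here code for matrix metalloproteinases (MMP), for the ADAM and ADAMTS families and for the TIMP inhibitors, measured in human colon fibroblasts after silencing of LTBP2. They were the protein-coding genes named MMP, TIMP, ADAM or ADAMTS followed by a number, with ADAMTS3 left out by the rule. The rule itself uses names and no measured values, but it was set with earlier results of these data known. The rule found 65 of the 60663 genes counted: 23 MMP, 20 ADAM, 18 ADAMTS and 4 TIMP genes. The cells were CCD18Co, an established line of normal colon fibroblasts, so each value describes a single line in culture. In the siLTBP2 group they were transfected with a pool of small interfering RNAs against LTBP2, and in the siNT group with a non-targeting pool, each in a lipid reagent. RNA was taken 48 h later and sequenced after ribosomal RNA depletion, from 3 libraries per group numbered 1 to 3. GEO's labels do not say whether these came from separate cultures, so the p-values measure the spread between these libraries, which may be technical.

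MMPs are secreted or membrane-anchored zinc enzymes that cut collagens and other matrix proteins, and most are made as inactive precursors. ADAMs sit in the cell membrane and release the outer part of other membrane proteins, a step called shedding, while ADAMTS enzymes are secreted, bind matrix and cut proteoglycans, procollagens or microfibril proteins. TIMPs block the active site of these enzymes, and fibroblasts are a main source of all 4 families in connective tissue. LTBP2 is a matrix protein that binds fibrillin microfibrils, on which several ADAMTS enzymes also act.

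The libraries held 44663424 to 53576899 counts on genes, of which the 65 genes took 0.356 to 0.427%. LTBP2 was measured at 24.98, 23.1 and 21.2 CPM (counts scaled to the library total, adjusted by the trimmed mean of M values) in siNT 1 to 3, and at 6.49, 8.61 and 6.00 CPM in siLTBP2 1 to 3. The groups did not overlap, and the log2 fold change was -1.72 ± 0.15 (SE, n = 3 per group, edgeR quasi-likelihood test, adjusted p = 6.6e-05). All 10 fibroblast markers passed the filter on low counts, with a summed level of 9959 to 13222 CPM in siNT and 10098 to 14431 CPM in siLTBP2. Among them PDGFRB was lower in siLTBP2 (log2 fold change -0.60, adjusted p = 0.0025). Of 6 epithelial markers, KRT18 and KRT8 passed the filter and KRT18 was higher (log2 fold change 1.15, adjusted p = 2.37e-04). The summed epithelial level was 40.1 to 52.4 CPM in siNT and 85.5 to 99.1 CPM in siLTBP2, while KRT20 was at 0 counts in every library and EPCAM had 2 counts in all. Of 5 smooth muscle and pericyte markers, MCAM (0.67) and ACTG2 (0.57) were higher on the log2 scale at an adjusted p below 0.05, the summed level was 53.8 to 58.8 CPM in siNT and 81.3 to 89.2 CPM in siLTBP2, and MYH11 and DES had at most 5 counts in a library. Of 4 endothelial markers, VWF alone passed the filter, and its siLTBP2 libraries were all below its siNT libraries (log2 fold change -0.71, adjusted p = 0.065). The summed endothelial level was 1.48 to 2.03 CPM in siNT and 0.797 to 1.37 CPM in siLTBP2, while CDH5 and KDR had at most 2 counts in a library. The 6 haematopoietic markers summed to 0.111 to 0.541 CPM in siNT and 0.190 to 0.613 CPM in siLTBP2. The part of these markers in the results below was not tested. In bulk RNA, a change in the number of cells of a type and a change in RNA per cell cannot be told apart.

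Of the 65 genes, 40 passed the filter on low counts and were tested: 11 MMP, 12 ADAM, 14 ADAMTS and 3 TIMP genes. A gene was called deregulated when its adjusted p was under 0.01 and its change more than 2-fold. By that call 4 of the 40 were higher in siLTBP2 (ADAMTS4, ADAM12, TIMP3 and MMP1), beside 1.29% of the 16920 genes tested. A further 2 were lower (MMP24 and ADAMTS5), beside 1.27% of all genes tested. The 6 deregulated genes made up 15% of the 40, against 2.57% of all genes. These counts rest on single libraries: without siNT 2 there was 1 higher and 1 lower gene, and without siLTBP2 2 there were 2 higher and 0 lower genes. The counts over all genes, 219 higher and 215 lower, became 137 and 171 without siNT 2, and 161 and 176 without siLTBP2 2. By adjusted p alone, under 0.05, 10 of the 40 were higher, beside 9.76% of all genes, and 4 were lower, beside 9.51% of all genes. These 14 genes were 35% of the 40, against 19.3% of all genes. In the fit with a replicate block, where libraries of the same number are compared with each other, 12 were higher and 10 were lower, and over all genes tested 3109 were higher and 3022 lower. All other values given are from the fit without the block unless it is named. The median log2 fold change was 0.02 over the 40 and -0.01 over all genes tested, and the median of its absolute size was 0.39 and 0.23, respectively.

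**Figure D1:**
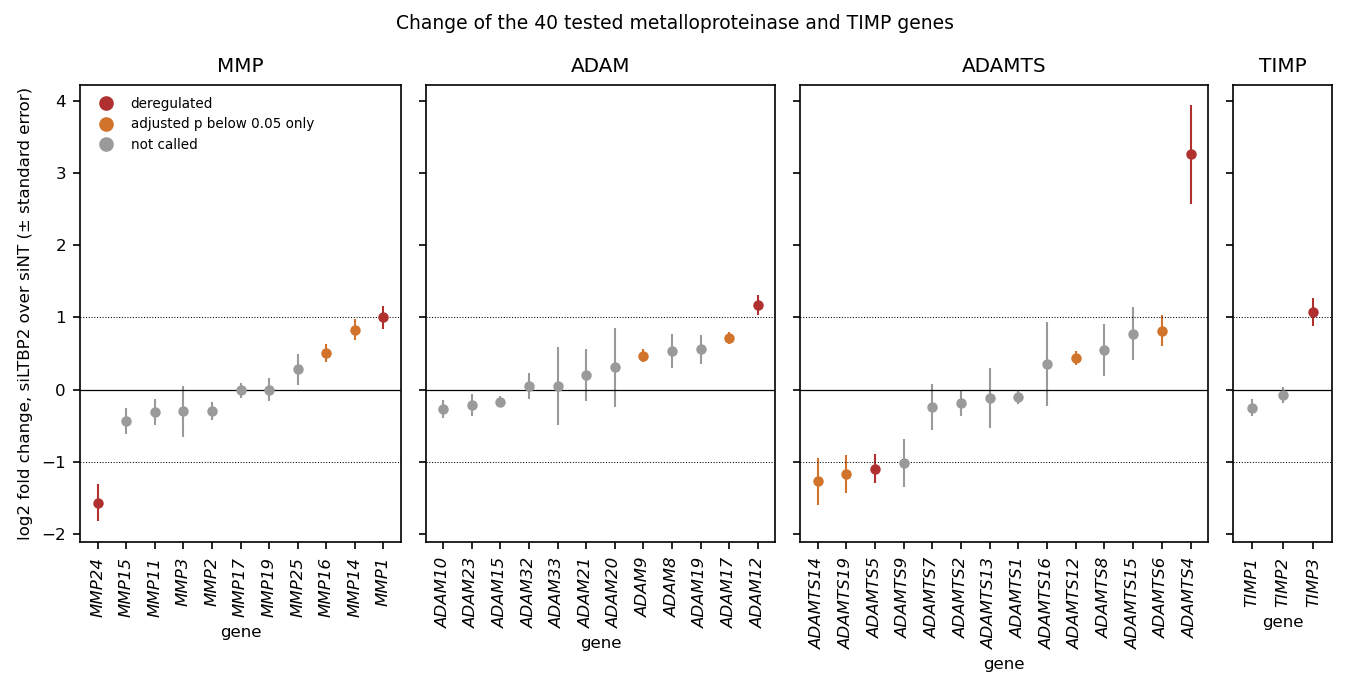
Log2 fold change (siLTBP2 over siNT, y axis) of the 40 tested genes (x axis, by family), with bars of 1 SE, colours for the call and dotted lines at a 2-fold change. The 6 deregulated genes range from MMP24 at -1.56 to ADAMTS4 at 3.26, and ADAMTS14, ADAMTS19 and ADAMTS9 also lie below -1 without that call.

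The siLTBP2 libraries were all above or all below the siNT libraries for 16 of the 40 genes, beside 37% of all genes tested. All siLTBP2 libraries were above for 11 genes (18.7% of all genes) and below for 5 (18.3% of all genes). The 14 genes with an adjusted p below 0.05 were among these 16, and the other two were ADAM8 and ADAM15. For a single gene, an exact permutation test of 3 against 3 libraries cannot give a two-sided p under 0.1. Groups that do not overlap always give that value, so the 0.1 of these 16 genes adds nothing to their separation.

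**Figure D2:**
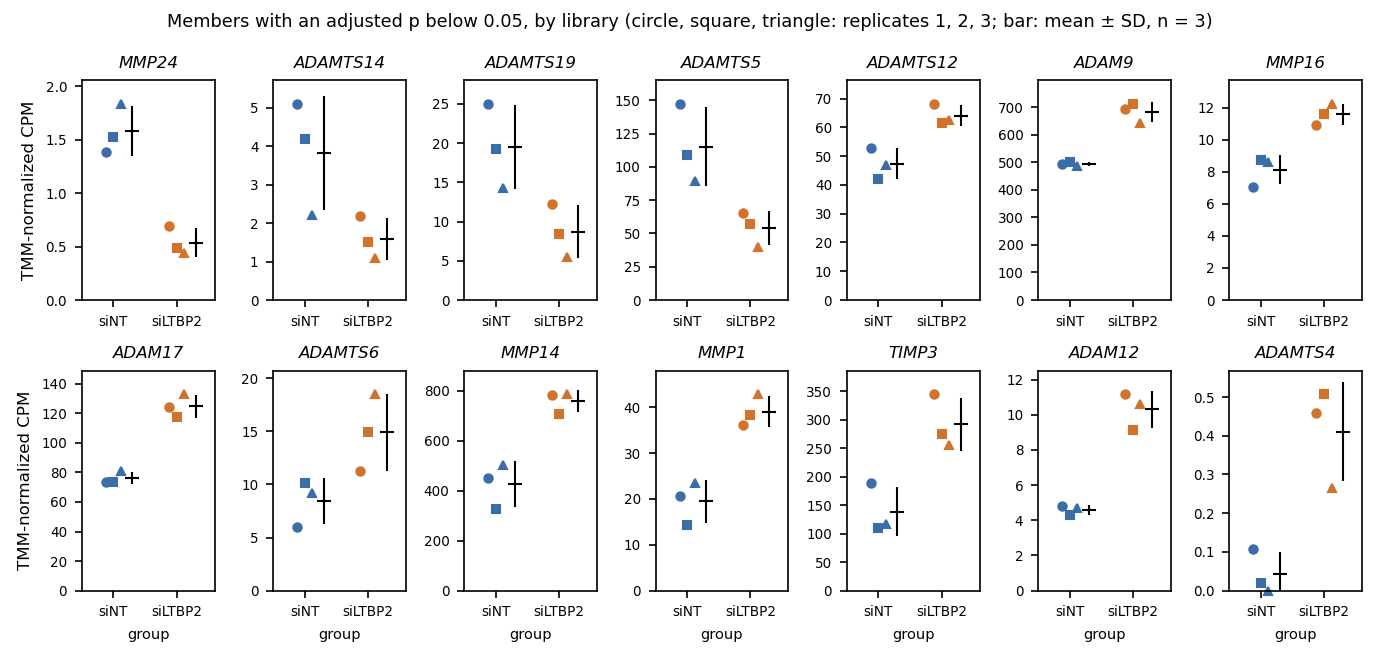
Level in each library (CPM, y axis from 0, scaled for each gene) of the 14 genes with an adjusted p below 0.05, with circles, squares and triangles for replicates 1, 2 and 3 of each group (x axis) and bars for the mean ± SD. The siNT and siLTBP2 points do not overlap for any of the 14, and ADAMTS14 comes nearest, at 2.21 CPM in siNT 3 against 2.18 CPM in siLTBP2 1.

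The sequence before the start of the gene is shown for 4 called genes and, for contrast, for MMP10, which was at 1 to 9 counts in each library. RefSeq (GRCh38.p14) gave a promoter entry for 38 of the 65 genes, and MMP1, MMP2, MMP3, ADAMTS4, ADAMTS5 and ADAM9 had none. Each sequence holds the 250 bases before the start, 5′ to 3′ on the strand of the gene: ADAM12 is chr10:126388478-126388727 on the minus strand, TIMP3 chr22:32801455-32801704 on the plus strand, MMP24 chr20:35226440-35226689 on the plus strand, MMP14 chr14:22836335-22836584 on the plus strand and MMP10 chr11:102780629-102780878 on the minus strand. Capitals mark GGGCGG, the core of the GC box bound by Sp1, in either orientation, TATAAA, the core of the TATA box, and TGANTCA, the letters of the AP-1 site.
ADAM12: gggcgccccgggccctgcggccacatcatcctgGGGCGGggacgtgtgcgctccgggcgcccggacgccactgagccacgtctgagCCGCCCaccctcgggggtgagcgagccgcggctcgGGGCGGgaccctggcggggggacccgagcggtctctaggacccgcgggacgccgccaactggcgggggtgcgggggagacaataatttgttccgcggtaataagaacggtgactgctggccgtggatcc
TIMP3: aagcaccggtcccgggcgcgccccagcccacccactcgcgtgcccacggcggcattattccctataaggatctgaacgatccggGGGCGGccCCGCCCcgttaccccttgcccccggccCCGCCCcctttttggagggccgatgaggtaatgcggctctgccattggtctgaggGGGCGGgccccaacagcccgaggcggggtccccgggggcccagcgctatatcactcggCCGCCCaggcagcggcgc
MMP24: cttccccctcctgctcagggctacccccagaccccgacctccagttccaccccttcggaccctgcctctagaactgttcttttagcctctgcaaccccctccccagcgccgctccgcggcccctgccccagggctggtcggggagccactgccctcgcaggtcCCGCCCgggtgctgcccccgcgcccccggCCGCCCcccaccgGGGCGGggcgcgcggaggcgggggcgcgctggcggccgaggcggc
MMP14: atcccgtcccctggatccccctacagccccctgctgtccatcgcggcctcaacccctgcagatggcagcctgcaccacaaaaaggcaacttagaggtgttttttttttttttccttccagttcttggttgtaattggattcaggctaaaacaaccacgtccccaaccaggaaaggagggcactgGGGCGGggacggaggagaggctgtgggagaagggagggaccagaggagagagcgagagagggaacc
MMP10: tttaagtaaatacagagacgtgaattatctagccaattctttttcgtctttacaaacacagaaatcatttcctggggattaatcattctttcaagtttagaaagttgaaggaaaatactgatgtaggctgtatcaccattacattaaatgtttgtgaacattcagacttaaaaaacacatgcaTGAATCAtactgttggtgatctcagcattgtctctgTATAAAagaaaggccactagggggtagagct
ADAM12, TIMP3, MMP24 and MMP14 carry GGGCGG but neither of the other motifs, whereas MMP10 carries TATAAA and TGANTCA, the first letters 31 and 67 bases before the start. The motifs do not overlap each other, and both strands were searched. GGGCGG was found in 25 of the 38 promoters (65.8%), beside 42.6% of all 35116 in the table, TATAAA in 7 (18.4%, beside 10.7%) and TGANTCA in 4 (10.5%, beside 6.57%). Among the genes with an entry, those that passed the filter and those that did not differed in these letters. Tested genes without an entry, such as MMP1 and MMP3, are not covered and could change this comparison. Of 22 tested genes with an entry, 18 held GGGCGG, 0 held TATAAA and 1, ADAMTS12, held TGANTCA. Of the 16 below the filter, 7, 7 and 3 did. The median GC content was 73.4% and 55.0%, respectively, and 58.0% over the table. Among the 9 genes with an entry and an adjusted p below 0.05, 8 held GGGCGG. These matches are a description of letters, not of binding.

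Among the secreted MMPs, MMP1 was higher after LTBP2 silencing, whereas MMP2 and MMP3 were not called. MMP1 (ENSG00000196611) is the interstitial collagenase, which makes the initial cut in fibrillar collagen. Its level was 20.7, 14.3 and 23.5 CPM in siNT 1 to 3 and 36.1, 38.2 and 42.8 CPM in siLTBP2 1 to 3, so that even the lowest siLTBP2 library was above the highest siNT library. The log2 fold change of MMP1 was 1.00 ± 0.16 (SE, adjusted p = 0.0019), which lies on the 2-fold limit of the call. It stayed at an adjusted p below 0.05 in every fit, but was under 2-fold without siNT 2 (0.82), without siLTBP2 3 (0.93), with scaling to total counts (0.97) and without the filter on low counts (0.99). MMP3, the stromelysin coded next to it, was measured at 48.3, 13.5 and 29.7 CPM in siNT and at 31.9, 18.8 and 23.6 CPM in siLTBP2. The siLTBP2 values of MMP3 fell inside the siNT range (log2 fold change -0.30, adjusted p = 0.61), and the sign turned without siNT 1 (0.19).

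MMP2 (ENSG00000087245), a gelatinase that cuts basement membrane and denatured collagens, had the highest mean level per kilobase of the proteinase genes in siNT, with MMP14 overlapping it. It was at 557, 401 and 505 CPM in siNT and 434, 377 and 384 CPM in siLTBP2, with siLTBP2 1 inside the siNT range. Its log2 fold change was -0.29 ± 0.12 (SE, adjusted p = 0.13), and it passed with the block (-0.28, adjusted p = 0.0044), without the filter on low counts (0.033) and without siNT 2 (-0.42, adjusted p = 0.029). The other gelatinase, MMP9, had 0 counts in siNT and 2 counts in siLTBP2. The collagenases MMP8 and MMP13 and the matrilysins MMP7 and MMP26 also had at most 3 counts in any library, so that MMP1 was the only one of the 3 collagenases that could be tested. MMP11, a stromelysin of stromal cells, was between 4.59 and 7.94 CPM (log2 fold change -0.31, adjusted p = 0.26; with the block, 0.038). MMP19 differed by 0.00 on the log2 scale (adjusted p = 0.99).

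All 6 membrane-type MMP genes, whose products stay on the cell surface, were tested: MMP14 and MMP16 rose, MMP24 fell, and MMP15, MMP17 and MMP25 were not called. At the same adjusted p below 0.05, 9.76% of all genes tested rose and 9.51% fell. MMP14 (ENSG00000157227) cuts collagen at the cell surface and activates the MMP2 precursor, with TIMP2 as the bridge between them. It was at 452, 325 and 504 CPM in siNT and at 783, 705 and 786 CPM in siLTBP2. All siLTBP2 libraries were higher, by a log2 fold change of 0.83 ± 0.15 (SE, adjusted p = 0.0032), a 1.78-fold difference that stayed under the 2-fold limit. MMP16 was at 7.07, 8.75 and 8.61 CPM in siNT and 10.9, 11.6 and 12.3 CPM in siLTBP2 (log2 fold change 0.51, adjusted p = 0.0183), and was no longer called without siNT 1 (0.41) or without siLTBP2 2 (0.51). MMP24 (ENSG00000125966) was low in all libraries, at 1.38, 1.52 and 1.84 CPM in siNT and 0.688, 0.486 and 0.436 CPM in siLTBP2. Its siLTBP2 values were all below the siNT values (log2 fold change -1.56 ± 0.25, SE, adjusted p = 0.0021), and without siLTBP2 2 it kept the size of the change but not an adjusted p below 0.01 (0.0126). Exons of MMP24 share 806 bases with MMP24OS on the opposite strand, which had a mean of 4258 counts per library against 52.3 for MMP24 and a log2 fold change of -0.12. The library kit kept the strand, but whether the counting used it is not given in the sources used here, so that the values of MMP24 are uncertain. MMP15 was at 4.82 to 7.03 CPM in siNT and 3.81 to 5.01 CPM in siLTBP2 (log2 fold change -0.43, adjusted p = 0.12; with the block, 0.0134).

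Per kilobase of exon, MMP14 stood near MMP2 in siNT and above it in siLTBP2. The ratio of MMP14 to MMP2 was 0.826, 0.823 and 1.02 in siNT 1 to 3 and 1.84, 1.91 and 2.08 in siLTBP2 1 to 3. MMP2 made up 44.8% of the summed MMP level per kilobase in siNT and 29.4% in siLTBP2, and MMP14 made up 39.9% and 57.0%. The ratio of MMP14 to TIMP2 was 1.11, 0.976 and 1.51 in siNT and 2.23, 1.93 and 2.57 in siLTBP2. Neither ratio overlapped between the groups, but MMP14 was already called higher in siLTBP2, so this separation is no further result. A ratio shows only that the paired genes changed unequally. The size of the ratio to TIMP2 hangs on the exon lengths: over the longest transcript, MMP14 was at 110.8 and TIMP2 at 131.5 CPM per kilobase in siNT, against 92.3 and 77.4 over all exons.

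Of the 12 ADAM genes tested, ADAM12, ADAM17 and ADAM9 rose and none fell at an adjusted p below 0.05. Of all genes tested, 9.76% rose and 9.51% fell by this limit. ADAM12 (ENSG00000148848), an active sheddase made by mesenchymal cells, whose promoter with its 3 GGGCGG matches is shown above, was at 4.80, 4.27 and 4.69 CPM in siNT and 11.2, 9.16 and 10.6 CPM in siLTBP2. The replicates lay close together in both groups, and the log2 fold change was 1.17 ± 0.13 (SE, adjusted p = 2.83e-04). Of the 6 deregulated genes, ADAM12 alone kept the call under every alternative that was tried. ADAM17 (ENSG00000151694) releases tumour necrosis factor and several ligands of the epidermal growth factor receptor, and is also known as TACE. It was at 73.8, 73.7 and 80.9 CPM in siNT and 124, 118 and 133 CPM in siLTBP2, a 1.64-fold rise (log2 fold change 0.71 ± 0.085, SE, adjusted p = 3.4e-04). ADAM9 was at 494, 501 and 486 CPM in siNT and 693, 714 and 645 CPM in siLTBP2 (log2 fold change 0.47 ± 0.089, SE, adjusted p = 0.0046). Exons of ADAM17 share 1645 bases with IAH1 on the opposite strand, which had 796 counts per library against 4898 for ADAM17 and a log2 fold change of -0.02.

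ADAM10, the sheddase of Notch receptors and cadherins, was not called. It was at 624, 633 and 521 CPM in siNT and 543, 516 and 417 CPM in siLTBP2 (log2 fold change -0.27 ± 0.12, SE, adjusted p = 0.16), and with the block its adjusted p was 0.0044. The ratio of ADAM17 to ADAM10 per kilobase was 0.118, 0.116 and 0.155 in siNT and 0.229, 0.228 and 0.320 in siLTBP2, with no overlap. Since ADAM17 was already called higher, the separation of this ratio is no further result. The size of this ratio depends on the exon lengths as well, since over the longest transcript ADAM17 was at 11.6 and ADAM10 at 53.1 CPM per kilobase in siNT, against 4.77 and 37.1 over all exons. ADAM19 was at 76.7, 54.8 and 77.7 CPM in siNT and 92.3, 76.3 and 140 CPM in siLTBP2, with siLTBP2 3 far above the rest (log2 fold change 0.56, adjusted p = 0.079). ADAM19 was called higher with the block (adjusted p = 6.13e-06), the likelihood ratio test (0.037), DESeq2 (0.021), no filter on low counts (7.73e-06) and without siLTBP2 2 (0.037). ADAM15 was at 114 to 117 CPM in siNT and 98.5 to 108 CPM in siLTBP2, and ADAM8 at 0.779 to 1.17 and 1.25 to 1.63 CPM. Neither gene overlapped between the groups, yet neither passed the test (adjusted p = 0.17 and 0.14).

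The ADAMTS genes moved in both directions: of 14 tested, ADAMTS4, ADAMTS6 and ADAMTS12 rose, and ADAMTS5, ADAMTS14 and ADAMTS19 fell at an adjusted p below 0.05. The shares over all genes tested were 9.76% and 9.51%. ADAMTS4 and ADAMTS5 are the main aggrecanases, which cut aggrecan and versican. ADAMTS5 (ENSG00000154736) was at 147, 109 and 89.1 CPM in siNT and 65.1, 57.3 and 39.7 CPM in siLTBP2, with siNT 3 the lowest of its group and siLTBP2 3 the lowest of all. Its log2 fold change was -1.09 ± 0.20 (SE, adjusted p = 0.0038). The deregulated call of ADAMTS5 was lost without siNT 1 (-0.88), siNT 2 (-1.13), siLTBP2 2 (-1.14) or siLTBP2 3 (-0.91), where either the fold or the adjusted p missed its limit. ADAMTS4 (ENSG00000158859) was near the limit of detection in siNT, with 5, 1 and 0 counts, and had 20, 24 and 14 counts in siLTBP2. The 0 counts of siNT 3 allow a level of up to 0.056 CPM, a limit that covers counting error only. Its fitted log2 fold change was 3.26 ± 0.68 (SE, adjusted p = 0.0077), on summed counts of 6 against 58. Leaving out 1 library gave 2.65 to 5.06, the highest without siNT 1, and the deregulated call was lost without siNT 2 (2.95), siNT 3 (2.65), siLTBP2 1 (3.17) or siLTBP2 2 (3.06). DESeq2 gave no adjusted p for ADAMTS4 at this depth. Despite the opposite directions, ADAMTS5 remained far above ADAMTS4, with a ratio of ADAMTS4 to ADAMTS5 per kilobase of 0.00837 or less in each library.

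ADAMTS1, the most abundant ADAMTS gene and also a versican-cutting enzyme, was not called. It was at 241, 200 and 203 CPM in siNT and 209, 183 and 208 CPM in siLTBP2 (log2 fold change -0.10, adjusted p = 0.53). ADAMTS9, which also cuts versican, was at 38.9, 32.7 and 18.5 CPM in siNT and 19.9, 17.5 and 7.40 CPM in siLTBP2. Library 3 was the lowest of both groups, the groups overlapped at siNT 3 and siLTBP2 1, and the log2 fold change was -1.01 ± 0.33 (SE, adjusted p = 0.058). ADAMTS9 was deregulated with the block (-1.05, adjusted p = 1.07e-10) and with no filter on low counts (-1.02), it passed an adjusted p of 0.05 with the likelihood ratio test, without siNT 3 and without siLTBP2 1, and over all alternatives its adjusted p ranged from 6.78e-14 to 0.175. ADAMTS15 was at 3.35, 2.61 and 1.74 CPM in siNT and 6.33, 4.86 and 2.01 CPM in siLTBP2 (log2 fold change 0.77, adjusted p = 0.17). It was called with the block (0.71, adjusted p = 9.39e-04) and with no filter on low counts (0.76, adjusted p = 0.0016), and was deregulated without siLTBP2 3 (1.13).

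ADAMTS2 and ADAMTS14 remove the amino-terminal propeptide of fibrillar procollagens. ADAMTS14 fell, from 5.10, 4.17 and 2.21 CPM in siNT to 2.18, 1.501 and 1.10 CPM in siLTBP2 (log2 fold change -1.27 ± 0.32, SE, adjusted p = 0.020). It was not called without siNT 1 (-1.01), siNT 2 (-1.20) or siLTBP2 2 (-1.24), and was deregulated with the block (-1.24). ADAMTS2 was at 3.32 to 4.87 CPM in siNT and 3.45 to 3.63 CPM in siLTBP2, and was not called (log2 fold change -0.19, adjusted p = 0.50). ADAMTS12, which cuts cartilage oligomeric matrix protein, rose from 53.0, 42.2 and 46.8 CPM to 68.3, 61.5 and 62.5 CPM (log2 fold change 0.44 ± 0.10, SE, adjusted p = 0.012). ADAMTS19 fell from 25.04, 19.2 and 14.2 CPM to 12.2, 8.37 and 5.50 CPM (log2 fold change -1.17 ± 0.27, SE, adjusted p = 0.012), and was deregulated with the block (-1.20). Its antisense neighbour ADAMTS19-AS1, with 58 shared exon bases and 69.0 counts per library, had a log2 fold change of -1.05 (adjusted p = 0.0165), and the shared bases are a small part of the 5392 exon bases of ADAMTS19.

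ADAMTS6, ADAMTS10 and ADAMTS17 act on fibrillin microfibrils, the structures to which LTBP2 binds. ADAMTS6 was at 6.03, 10.1 and 9.22 CPM in siNT and 11.3, 14.97 and 18.5 CPM in siLTBP2. All siLTBP2 libraries were higher, by a log2 fold change of 0.82 ± 0.21 (SE, adjusted p = 0.022), and the call was lost without siNT 1 (0.62) or siLTBP2 2 (0.81). ADAMTS10 and ADAMTS17 were at 0 counts in all siNT libraries and had summed counts of 3 and 4 in siLTBP2, which is too few to test.

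Of the 4 inhibitors, TIMP3 rose, TIMP1 and TIMP2 were not called and TIMP4 was too low to test. TIMP3 (ENSG00000100234) binds to the matrix and inhibits ADAM17 and the aggrecanases in addition to MMPs. It was at 189, 110 and 117 CPM in siNT and 345, 275 and 255 CPM in siLTBP2. The log2 fold change of TIMP3 was 1.07 ± 0.19 (SE, adjusted p = 0.0034), with each siLTBP2 library above all siNT libraries. The call was near both limits: TIMP3 was not deregulated without siNT 2 (0.93), siNT 3 (0.97), siLTBP2 1 (0.94) or siLTBP2 2 (1.11). TIMP1 was at 272, 209 and 281 CPM in siNT and 231, 200 and 212 CPM in siLTBP2 (log2 fold change -0.25, adjusted p = 0.18; with the block, 0.014, and without siNT 2, 0.032). TIMP2 was at 547, 447 and 448 CPM in siNT and 472, 491 and 410 CPM in siLTBP2 (log2 fold change -0.07, adjusted p = 0.72). The TIMP2 ranges overlapped, and the sign turned without siNT 1 (0.03). TIMP4 had 5, 2 and 3 counts in siNT and 5, 14 and 8 counts in siLTBP2. The ratio of TIMP3 to TIMP2 per kilobase was 0.466, 0.331 and 0.354 in siNT and 0.985, 0.757 and 0.841 in siLTBP2, and did not overlap. With TIMP3 already called higher, that separation is no further result.

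**Figure D3:**
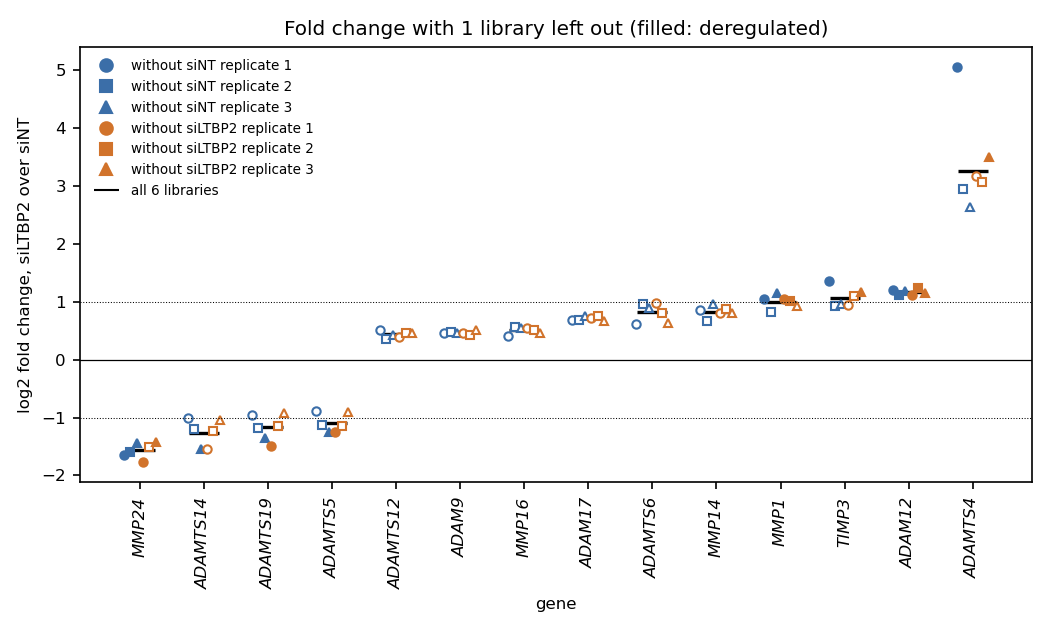
Log2 fold change (siLTBP2 over siNT, y axis) of the 14 genes with an adjusted p below 0.05 (x axis) with all 6 libraries (bar) and with each library left out in turn (points). Filled points are deregulated in that fit, and all points of a gene lie on the same side of 0, with ADAMTS4 the widest at 2.65 to 5.06.

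The other 25 genes did not pass the filter. ADAM2, ADAM7, ADAM18, ADAM29 and MMP8 had 0 counts in every library, which allows a level of up to 0.0672 CPM in the library with the fewest counts. A further 14 genes had 1 to 10 counts over the 6 libraries together. Only ADAM11, ADAM28, MMP10, MMP12, MMP23B and TIMP4 had more, up to 53 counts summed and 14 in a library. Those of MMP23B are also uncertain, since the gene has a near-identical copy. Among the genes tested, ADAM20, ADAM21, ADAM23, ADAM32, ADAM33, ADAMTS7, ADAMTS8, ADAMTS13 and ADAMTS16 had adjusted p-values of 0.33 to 0.96 and log2 fold changes of -0.24 to 0.55. MMP17 was close to level, at 14.3 to 15.9 CPM in siNT and 14.6 to 15.9 CPM in siLTBP2 (log2 fold change -0.01).

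Levels can be compared between genes only per length, here in CPM per kilobase of all exons. In siNT the order was TIMP1 (176 ± 26.9, SD, n = 3), MMP2 (104 ± 16.8), MMP14 (92.3 ± 19.96), TIMP2 (77.4 ± 9.23), ADAM10 (37.1 ± 3.90), TIMP3 (30.1 ± 9.49), ADAMTS1 (29.4 ± 3.12) and ADAM9 (27.9 ± 0.424). ADAM15 (17.5), MMP3 (16.4), ADAMTS5 (11.8), ADAM19 (9.05) and MMP1 (7.12) followed. Neighbours in this order mostly had overlapping libraries: among the 15 most abundant genes, TIMP1 stood apart from MMP2, TIMP2 from ADAM10 and ADAM9 from ADAM15, and the other neighbours overlapped. In siLTBP2, MMP14 was at 164 ± 9.87 and TIMP1 at 148 ± 10.9, followed by MMP2 (84.6 ± 6.59), TIMP2 (73.7 ± 6.82) and TIMP3 (63.5 ± 10.2). The annotation decides some of these places: over the longest transcript instead of all exons, ADAM9 was at 69.7 in siNT, against 27.9, and the places of TIMP2 and ADAM17 also moved, as given above.

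**Figure D4:**
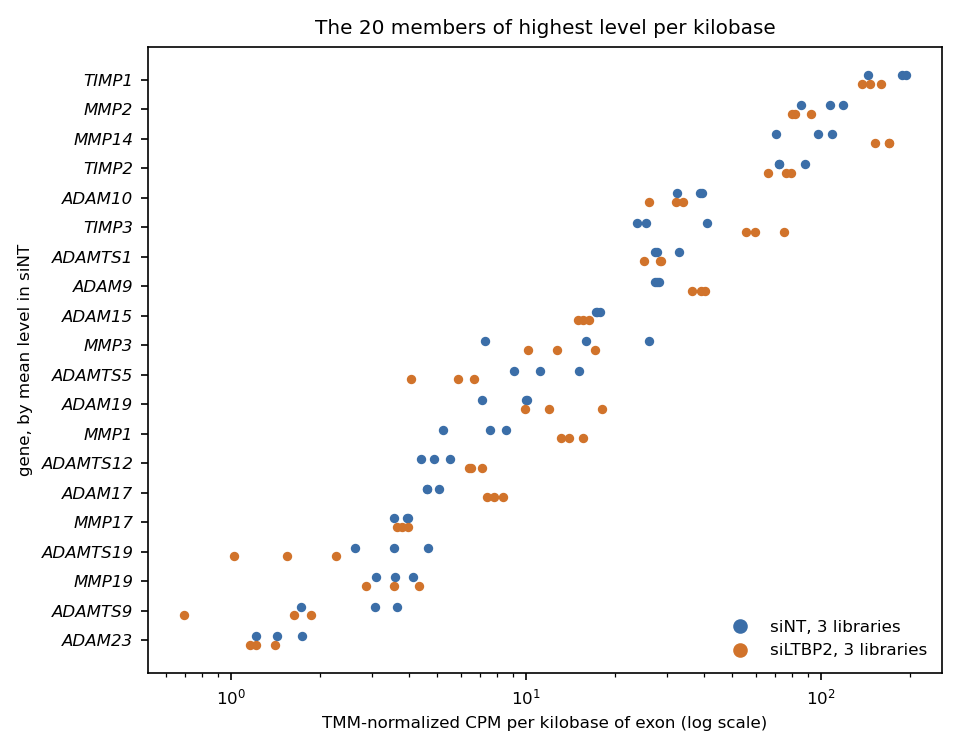
Level per kilobase of exon (CPM per kb, x axis, log scale) of the 20 genes of highest mean level in siNT (y axis), with a point for each siNT and siLTBP2 library. TIMP1, MMP2, MMP14 and TIMP2 lie at the top in both groups, and MMP14 and TIMP3 sit higher in siLTBP2 than in siNT.

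The summed level per kilobase of the 23 MMP genes was 231 ± 45.2 (SD, n = 3) in siNT and 287 ± 18.1 in siLTBP2, and every siLTBP2 library was above every siNT library. That of the 20 ADAM genes was 98.9 ± 3.32 and 109 ± 2.43, again without overlap. The ADAMTS sum was 55.8 ± 8.60 and 46.5 ± 3.49, and the TIMP sum 283 ± 39.1 and 285 ± 22.4, both with overlapping libraries. Within the TIMP sum, the share of TIMP3 went from 10.6% in siNT to 22.2% in siLTBP2 and that of TIMP1 from 62.0% to 51.9%. In the ADAMTS sum, ADAMTS5 made up 21.1% and 11.9%, and ADAMTS1 52.6% and 58.8%. These sums and shares, and the shares of MMP2 and MMP14 given above, rest on the lengths of all exons. No test was run on them.

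Several of the genes lie side by side in the genome (GRCh38). A stretch of chromosome 11 from position 102520508 to 102955732 holds 9 of the MMP genes, of which MMP1 and MMP3 were tested. Their ends are 37641 bases apart, and their log2 fold changes were 1.00 and -0.30. The ratio of MMP1 to MMP3 per kilobase was 0.291 to 0.717 in siNT and 0.766 to 1.38 in siLTBP2. ADAMTS1 and ADAMTS5 are 72513 bases apart on chromosome 21, with log2 fold changes of -0.10 and -1.09. ADAMTS8 and ADAMTS15, 20036 bases apart on chromosome 11, had log2 fold changes of 0.55 and 0.77, neither of which passed the test. ADAM9 and ADAM32, 1545 bases apart, had log2 fold changes of 0.47 and 0.05, of which that of ADAM9 passed.

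An earlier search of these data singled out the word GCACCCA in 3′ untranslated regions, so that its presence is described here and supports nothing. It was found in 4 of the 40 tested genes (10%), beside 1454 of 12303 coding genes tested (11.8%). TIMP3 holds 2 copies, and ADAMTS4, MMP24 and TIMP2 hold 1 each. Of these, TIMP3 and ADAMTS4 were higher, MMP24 was lower and TIMP2 was not called.

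Genes that act with these enzymes were read from fixed lists. The counts of each list stand beside 9.76% higher and 9.51% lower over all genes tested, at an adjusted p below 0.05. The median log2 fold change over all genes tested was -0.01. Of 13 genes that activate or inhibit MMPs, 11 were tested, 0 were higher and 2 were lower at an adjusted p below 0.05, with a median log2 fold change of -0.12. FURIN, which removes the prodomain of membrane-type MMPs and many ADAM and ADAMTS enzymes, was at 141, 103 and 135 CPM in siNT and 69.9, 72.2 and 69.3 CPM in siLTBP2 (log2 fold change -0.84 ± 0.12, SE, adjusted p = 7.3e-04). The other was SH3PXD2A, an invadopodium scaffold (-0.32). Of 10 partners of ADAMs, 9 were tested: TSPAN5, a tetraspanin that escorts ADAM10, was higher (0.60, adjusted p = 0.0023), and RHBDF2, a partner of ADAM17, and PACS2 were lower. RHBDF2 was at 1.43 to 2.53 CPM in siNT and 0.493 to 1.10 CPM in siLTBP2 (-1.19, adjusted p = 0.025). RHBDF1, of the same list, was at 56.0 to 64.7 CPM in siNT and 64.6 to 68.0 CPM in siLTBP2. It was not called (0.12, adjusted p = 0.39).

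Of 9 ADAMTS-like proteins and glycosyltransferases of thrombospondin repeats, 6 were tested, 3 were higher and 0 were lower, with a median of 0.38. ADAMTSL1, a matrix protein without proteinase domain, was at 1.58, 2.67 and 3.23 CPM in siNT and 9.36, 9.39 and 10.6 CPM in siLTBP2. It was deregulated, with a log2 fold change of 1.96 ± 0.22 (SE, adjusted p = 2.45e-04), and ADAMTSL5 (0.52) and POFUT2 (0.30) were also higher. Of 7 astacin proteinases and enhancers, 2 were tested and 0 were called, among them BMP1, the procollagen C-proteinase (0.16, adjusted p = 0.36). The other, PCOLCE, an enhancer of that proteinase, was lower with the block (-0.26, adjusted p = 0.011). Of 21 proteins shed by ADAM10 or ADAM17, 17 were tested, 3 were higher and 2 were lower, with a median of 0.18. SDC1 was at 92.0, 77.2 and 73.1 CPM in siNT and 182, 161 and 137 CPM in siLTBP2 (0.99, adjusted p = 4.1e-04), TNFRSF1B and NOTCH2 were also higher, and CD44 (-0.71) and VCAM1 (-1.13) were lower. Of 14 substrates of ADAMTS enzymes, 8 were tested and 1 was higher, FBN1, which codes for fibrillin-1 (0.65, adjusted p = 0.0175). In each list the genes beyond the deregulated ones and the one of lowest p were named after their values were seen. Without single libraries, the calls of SH3PXD2A, RHBDF2, PACS2, POFUT2, TNFRSF1B, NOTCH2, VCAM1 and FBN1 were lost at least once, while those of FURIN, TSPAN5, ADAMTSL1, ADAMTSL5, SDC1 and CD44 held in all 6 fits. With the block, RHBDF2 and VCAM1 were deregulated.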

How the data were processed

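RNA of 6 CCD18Co libraries was measured by stranded total RNA-seq, 3 libraries per group. Per the submitters' processing notes, reads were handled with STAR 2.7.1a and HTSeq 0.11.2 on GRCh38; for the annotation release and the strand setting of the counting the sources used here give nothing. The authors deposited raw counts per gene, with no normalisation, and every column of the table was used.

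Genes were filtered with filterByExpr, scaled by TMM and tested with the quasi-likelihood test of edgeR 4.0.16 (R 4.3.3, limma 3.58.1), two-sided, with Benjamini-Hochberg adjustment over all 16920 genes tested. The study used the likelihood ratio test of edgeR, which was an alternative here, as was DESeq2 1.42.0, and the thresholds of the deregulated call, 0.01 for the adjusted p and 2 for the fold, were those of the study. Groups came from GEO's labels. Exon lengths and positions came from GENCODE 44, which holds 60462 of the 60663 gene identifiers, 95.7% of them with the same start. The members and the gene lists were chosen with earlier results of these data known. Genes given by library were those with an adjusted p below 0.05, the TIMP genes, and a fixed list of well-studied members. ADAMTS9 and ADAMTS15 were given by library as well, outside this rule and not chosen in advance. A planned search for the zinc site and the furin site in protein sequences was not run, since protein sequences were not used here.

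Deviations of log2(CPM + 1) from the group means correlated at 0.50, 0.25 and 0.62 for libraries of the same number. For libraries of different numbers the correlations were -0.54 to 0.048. The replicate block, which pairs libraries by number, was an alternative that rests on this check and not on the labels. The main fit did not pair the libraries. On edgeR's own log scale the values were 0.30, 0.083 and 0.43 for the same number, and -0.39 to 0.10 for different numbers. The test procedure was checked on simulated counts with known fold changes, and all values reported come from the deposited counts. At 44663424 to 53576899 counts per library, 3 counts equal 0.056 to 0.0672 CPM.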

Additional observations from a re-analysis of the deposited data

How the results depend on the processing

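The counts of deregulated genes depended on single libraries. The 4 higher genes became 1 without siNT 2 and 2 without siNT 3, siLTBP2 1 or siLTBP2 2, a range of 1 to 4 over the 6 fits that each left out a library. The 2 lower genes became 1 without siNT 1, siNT 2 or siLTBP2 3, 4 without siNT 3 and 0 without siLTBP2 2, a range of 0 to 4. Over all genes tested, 219 higher and 215 lower genes became 137 to 201 higher and 155 to 207 lower without single libraries. Lower genes among the 40 numbered 4 with the likelihood ratio test, 5 with no filter on low counts and 5 with the replicate block. Over all genes, the lower ones numbered 317, 356 (of 33596 tested without the filter) and 336 in these fits. Against a fold change of 1.5, ADAM12, MMP24 and ADAMTS4 passed an adjusted p of 0.05. The count over all genes is not given for this test, so these 3 of the 40 have no share to stand beside. At an adjusted p below 0.05, the lower genes were 10 with the block, and 3 to 5 without single libraries; the higher genes were 12 with the block and 8 to 11 without single libraries. Over all genes tested the block gave 3109 higher and 3022 lower, against 1652 and 1609. Without single libraries these were 1042 to 1449 higher and 1078 to 1332 lower. Of the 40 tested genes and the genes named from the fixed lists, the block changed no call other than those given there. That does not cover RHBDF1, the cell type markers or the genes that overlap a member. Reversed signs were those of TIMP2 without siNT 1 (0.028) and without siLTBP2 3 (0.0068), in a range of -0.13 to 0.028 without single libraries, and of MMP3 without siNT 1 (0.19), in a range of -0.65 to 0.19, and neither gene was called. For all of these, the cause was not tested.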
